A study of Mus musculus with 9 samples.

Results

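The long non-coding RNAs (lncRNAs) of 7 imprinted regions were followed in β-TC6 cells, an insulin-secreting line from an insulinoma that arose in transgenic mice. They were taken by position alone, as every transcript in the deposited lncRNA table that overlaps an mm10 window around Meg3, Rian and Mirg, H19, Kcnq1ot1, Snhg14, Airn, Peg13 or Nespas, and counts were summed per locus. The windows hold 12 of the 9635 loci in the table and 21 of its 15589 transcripts. Of these, 10 loci and 15 transcripts passed edgeR's filter on low counts and were tested. The 9 libraries form 3 groups of 3, given stearic acid for 24 h, given palmitic acid for 24 h, or left untreated as control. Both acids were used at 400 µmol/L in medium with 1.3% albumin. The sources used here do not give the albumin of the control cells, so an effect of the acids and one of albumin cannot be told apart. Nothing in the labels says that replicates were separate cultures, so p-values measure the spread between these libraries, which may be technical.

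In an imprinted region, genes are expressed from the maternal or the paternal chromosome only, under the control of a DNA region that is methylated in one parent's germ line. Several such regions make a long unspliced or partly spliced lncRNA. Airn, Kcnq1ot1 and Nespas are transcribed from the paternal copy and lie opposite a protein-coding gene, and Airn and Kcnq1ot1 silence genes on the same chromosome. Meg3, Rian, Mirg and H19 come from the maternal copy and give rise to, or host, small RNAs. In islets, Meg3 is known as a β cell lncRNA linked to insulin output. The files hold expression summed over both parental copies, so imprinting itself was not measured.

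Counts assigned to lncRNAs summed to 1537431 to 2418397 in the stearic acid libraries, 2484333 to 2755266 in the palmitic acid libraries and 1839123 to 2870275 in the control libraries. The 12 loci held 1791 to 2763 counts in a library. That share was 0.112% ± 0.00587 of lncRNA counts with stearic acid, 0.0981% ± 0.00318 with palmitic acid and 0.105% ± 0.0174 in control (mean ± SD, n = 3 each). Levels are in CPM, counts divided by a library size corrected with TMM factors, and 3 counts equalled 1.10 to 2.01 CPM depending on the library, which covers counting error only. Stearic acid replicate 2 had the lowest total and lay away from the rest, with a second principal component score of −26.9, against −4.47 to 11.5 in the other libraries. As a check of the cell type, 14 lncRNA loci at or within 10 kb of 9 of 10 β cell marker genes summed to 7211 to 8256 CPM with stearic acid, 8666 to 9522 CPM with palmitic acid and 12836 to 13666 CPM in control. Igf2os and the antisense lncRNA of Mafa, which are among them, hold most of that difference, 4 of 11 tested loci of the list fell with stearic acid and 3 with palmitic acid against control, and 1 differed between the acids. The part of that difference between groups in the values below was not tested. Lists for other cell types had few loci. The 2 of α cell genes summed to 84.4 to 96.5 CPM with stearic acid, 79.1 to 94.9 CPM with palmitic acid and 63.5 to 67.3 CPM in control. The 1 of them tested, XLOC_038697 at Irx2, rose with stearic acid against control (log2 0.48, edgeR adjusted p = 0.048) and had a log2 change of 0.45 with palmitic acid (edgeR adjusted p = 0.093). The locus near a macrophage gene lay between 63.7 and 316 CPM over all libraries. Loci of fibroblast, PP and duct cell genes stayed under 8 CPM, that of acinar cell genes was at 0, and δ and endothelial cell genes had none.

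None of the 10 tested loci passed the test with either acid. With stearic acid against control 0 of 10 passed edgeR's quasi-likelihood test at a Benjamini-Hochberg adjusted p under 0.05, where 11.8% of all 3039 tested loci passed. With palmitic acid against control 0 of 10 passed, where 5.56% of all tested loci passed. Between stearic and palmitic acid 0 of 10 passed, where 0.0987% of all tested loci passed. At an unadjusted p under 0.05, edgeR gave 0 of the 10 loci with stearic acid against control, 1 with palmitic acid (Kcnq1ot1) and 1 between the acids (Airn), beside 763, 600 and 224 of all tested loci. The Wald test of DESeq2, run without that filter, gave an adjusted p to 10 of the 12 loci in each comparison with control and to 12 between the acids, and 0 passed. Its unadjusted p was under 0.05 for Airn between the acids, and for XLOC_135569, which has 12 counts in all, with stearic acid against control and between the acids. The comparisons with control share the 3 control libraries, and those of each acid share its libraries.

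The fold changes of the 10 loci were smaller on the median than those of all tested lncRNA loci. The sets were not matched for level, and in mean FPKM the 10 loci stood at or above 80.9% to 96.0% of loci with a count. Whether level accounts for the smaller changes and variation was not tested. The median absolute log2 change was 0.21 over the 10 loci and 0.37 over all tested loci with stearic acid against control, 0.16 and 0.32 with palmitic acid against control, and 0.09 and 0.24 between the acids. The signed medians were 0.05, −0.01 and 0.09 over the 10 loci, and 0.01, −0.02 and 0.01 over all tested loci, with stearic acid, with palmitic acid and between the acids. Stearic acid was above palmitic acid in 9 of the 10 loci, where 51.6% of all tested loci had a positive change. Some of these signs depend on stearic acid replicate 2. Without it the change was −0.19 for Nespas and −0.17 for XLOC_135345, while for Gm26906 it was larger, at 0.27. Across the 9 libraries, the coefficient of variation of a locus had a median of 16.4% over the 10 loci (10.6% to 39.8%) and 31.2% over all tested loci. A missed threshold does not show that levels were alike. The 95% confidence interval of the log2 change lay within −1 and 1 for 7 of 10 loci with stearic acid against control, 8 with palmitic acid against control and 10 between the acids. It lay within −0.5 and 0.5 for 5, 5 and 4 of them.

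**Figure D1:**
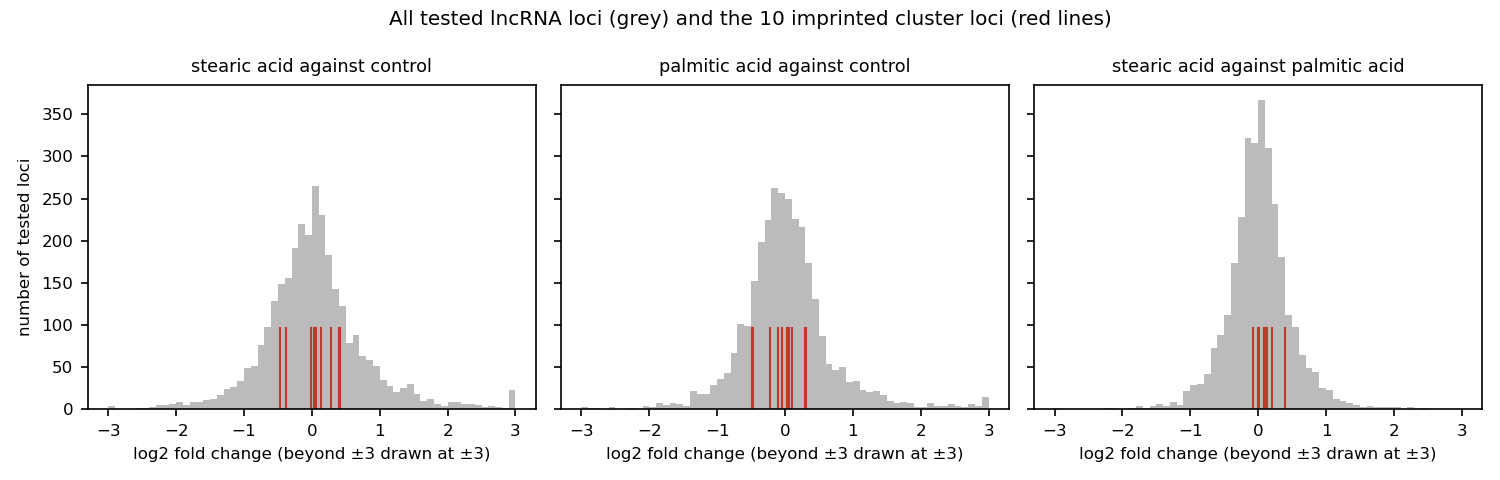
Histograms of the edgeR log2 fold change of all 3039 tested lncRNA loci (grey, number of loci on the y axis) in each comparison, with the 10 imprinted cluster loci as red lines whose height carries no value. The red lines sit near 0, with medians of 0.05 and −0.01 against control for stearic and palmitic acid, and of 0.09 between the acids.

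Airn, transcribed from an internal promoter of the growth factor receptor gene Igf2r and known for silencing that gene on the paternal chromosome, differed most between the acids. Its locus (XLOC_065675, chromosome 17, 12741311 to 12815557 of mm10, plus strand, 4 transcripts) had 108, 158 and 132 CPM in the stearic acid libraries, 99.7, 106 and 95.6 CPM in the palmitic acid libraries, and 111, 98.0 and 115 CPM in the control libraries. All 3 stearic acid libraries lay above all 3 palmitic acid libraries, stearic acid replicate 2 was the highest, and stearic acid replicate 1 lay within the control range. Groups that lie fully apart, here and below, were not counted over all tested loci or transcripts, so no share can be set beside them. The log2 change of stearic against palmitic acid was 0.39 ± 0.16 (SE), 1.31-fold with a 95% confidence interval of 1.04 to 1.64, at an unadjusted p of 0.0213 and an adjusted p of 0.591 in edgeR. Against control the log2 change was 0.29 with stearic acid (−0.04 to 0.61, edgeR adjusted p = 0.267) and −0.10 with palmitic acid (−0.43 to 0.22, edgeR adjusted p = 0.777). Without stearic acid replicate 2 the log2 change of Airn was 0.24 between the acids and 0.14 with stearic acid against control.

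The 4 Airn transcripts begin within 74 bases of the annotated start and differ in where they end. TCONS_00107973, the longest in span (12741374 to 12815557), took 50.1% of the locus counts on average, TCONS_00107963 (12741311 to 12769399) 29.6%, TCONS_00107964 (12741311 to 12795854) 18.96% and TCONS_00107974 1.33%. TCONS_00107973 had 55.4, 79.6 and 79.8 CPM with stearic acid, 47.2, 53.3 and 53.3 CPM with palmitic acid, and 53.7, 48.8 and 44.9 CPM in control. Each stearic acid library lay above every palmitic acid and control library for this transcript. Its log2 change was 0.54 with stearic acid against control (unadjusted p = 0.0179, adjusted p = 0.214) and 0.48 against palmitic acid (unadjusted p = 0.0302, adjusted p = 0.956) in edgeR's fit of 4426 transcripts. TCONS_00107963, which ends inside Igf2r's span, had log2 changes of 0.13 and 0.16 in the same comparisons, with edgeR adjusted p of 0.889 and 0.996. As a share of the locus, TCONS_00107973 took 54.0% ± 5.46 with stearic acid, 50.4% ± 4.55 with palmitic acid and 45.9% ± 5.65 in control (SD, n = 3 each). The difference of 8.06 percentage points between stearic acid and control had an exact permutation p of 0.1, the smallest that 3 against 3 libraries allow.

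Kcnq1ot1, the paternal antisense lncRNA of the potassium channel gene Kcnq1 that silences a group of neighbouring genes including Cdkn1c, had the lowest log2 change of the 10 loci in both comparisons with control. Its single transcript (XLOC_136505, chromosome 7, 143207009 to 143296555, minus strand, 5 exons) had 26.2, 24.1 and 27.6 CPM in the stearic acid libraries, 22.7, 32.4 and 22.1 CPM in the palmitic acid libraries, and 44.0, 35.6 and 29.0 CPM in the control libraries. All 3 stearic acid libraries lay below all 3 control libraries, while palmitic acid replicate 2 lay above control replicate 3. Against control the log2 change was −0.47 ± 0.24 with stearic acid (0.724-fold, 95% confidence interval 0.515 to 1.02, unadjusted p = 0.0613, edgeR adjusted p = 0.226). With palmitic acid it was −0.48 ± 0.23 (0.716-fold, 0.513 to 0.999, unadjusted p = 0.0494, edgeR adjusted p = 0.252). The acids gave nearly equal means for Kcnq1ot1, 26.0 ± 1.73 CPM with stearic acid and 25.8 ± 5.80 CPM with palmitic acid (SD, n = 3 each), and the interval of their log2 difference ran from −0.48 to 0.51. Without control replicate 1, the highest, the log2 changes against control were −0.31 with stearic and −0.32 with palmitic acid.

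The promoters of these antisense lncRNAs are shown because Airn and Kcnq1ot1 are the loci with groups that did not overlap in CPM and because their assembled transcripts begin at the annotated start. How many of all tested loci have such groups was not counted, so this choice marks no result of a test. TCONS_00107963 and TCONS_00107964 begin exactly at the RefSeq start of Airn, TCONS_00107973 63 bases downstream of it, and the Kcnq1ot1 transcript 8 bases upstream of its RefSeq start. The sequences run from 250 bases before to 50 bases after the start, 5′ to 3′ on the gene's strand, from RefSeq's GRCm38.p6, which has the coordinates of mm10. Capitals mark CCAAT, the box bound by the NF-Y factor in many promoters, searched for on both strands as CCAAT and ATTGG.
Kcnq1ot1, chr7:143296498-143296797, minus strand: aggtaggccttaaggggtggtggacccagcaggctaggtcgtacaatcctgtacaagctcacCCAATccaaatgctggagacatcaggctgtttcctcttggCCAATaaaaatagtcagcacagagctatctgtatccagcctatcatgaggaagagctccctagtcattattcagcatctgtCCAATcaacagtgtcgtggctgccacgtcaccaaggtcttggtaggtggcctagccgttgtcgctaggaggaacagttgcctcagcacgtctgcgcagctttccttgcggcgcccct
Airn, chr17:12741061-12741360, plus strand: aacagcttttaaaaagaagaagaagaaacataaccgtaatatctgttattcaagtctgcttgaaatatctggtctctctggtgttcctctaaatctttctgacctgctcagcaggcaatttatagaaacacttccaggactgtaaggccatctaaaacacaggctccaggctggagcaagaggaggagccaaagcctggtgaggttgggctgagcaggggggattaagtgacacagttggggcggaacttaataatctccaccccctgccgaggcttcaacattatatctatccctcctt
The Kcnq1ot1 window held 3 CCAAT boxes, and 3.37% of 32851 mouse promoter windows of the same length held at least as many, while 37.4% held at least 1. The Airn window held none. CG pairs, the targets of DNA methylation, numbered 9 in the Kcnq1ot1 window and 3 in the Airn window, where the median promoter held 7. These matches describe the letters of the windows and were not tied to the levels measured.

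Nespas, the paternal antisense lncRNA of the Gnas cluster whose transcription is needed to silence Nesp there, had the narrowest intervals of the 10 loci. The locus (XLOC_086538, chromosome 2, 174281237 to 174300923, minus strand, 5 transcripts) had 222, 306 and 218 CPM with stearic acid, 240.4, 242 and 260.1 CPM with palmitic acid, and 247, 243 and 224 CPM in control. Stearic acid replicate 2 was the highest library and the other stearic acid libraries were the lowest. The group means were 249 ± 49.8 CPM, 248 ± 10.8 CPM and 238 ± 12.1 CPM for stearic acid, palmitic acid and control (SD, n = 3 each). The log2 change against control was 0.06 with either acid, with 95% confidence intervals of −0.24 to 0.37 for stearic and −0.24 to 0.36 for palmitic acid. Most counts, 72.7%, went to TCONS_00150364, typed as intronic, which starts at 174300923, upstream of the annotated start of Nespas at 174295436, and ends at 174293984. Only its end thus lies within the annotated span of Nespas (174281237 to 174295436), and the values of the locus are mostly those of this transcript. Another 24.1% of counts went to TCONS_00150359, which runs on to 174281237.

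Snhg14 is the long host of small nucleolar RNAs in the Prader-Willi and Angelman syndrome region, and its far end runs antisense to the ubiquitin ligase gene Ube3a, whose paternal copy it silences in neurons. Its annotated span of 668 kb (59307924 to 59975759, minus strand) was represented by a transcript at each end and none between. At the start, XLOC_135567 (59946630 to 59973457, 6 exons) had 14.7, 10.1 and 14.8 CPM with stearic acid, 13.9, 13.7 and 8.93 CPM with palmitic acid, and 13.1, 6.82 and 10.03 CPM in control. At the far end, XLOC_135347 (59307924 to 59324149, 3 exons), which overlaps the 3′ end of Ube3a on the opposite strand, had 347, 251 and 316 CPM with stearic acid, 252, 261 and 336 CPM with palmitic acid, and 309, 233 and 292 CPM in control. The groups overlapped for both loci. Against control, the log2 change of XLOC_135347 was 0.13 with stearic acid (−0.19 to 0.46) and 0.02 with palmitic acid (−0.30 to 0.35), and that of XLOC_135567 was 0.42 (−0.33 to 1.17) and 0.29 (−0.45 to 1.04), with edgeR adjusted p from 0.525 to 0.959.

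The window around Snhg14 held another 2 loci. XLOC_135345 (59197790 to 59228910, minus strand) lies beyond the annotated end of Snhg14. Its transcript TCONS_00236900 overlaps the start of Ube3a, at 59228750 on the opposite strand. However, 99.9% of the locus counts belonged to TCONS_00236899 (59197790 to 59204720), which does not reach Ube3a. The locus had 175, 270.1 and 171 CPM with stearic acid, 207, 192 and 181 CPM with palmitic acid, and 205, 197 and 195 CPM in control. Stearic acid replicate 2 was the highest and the other stearic acid libraries the lowest, as for Nespas. Its log2 change against control was 0.04 with stearic acid (−0.30 to 0.37) and −0.04 with palmitic acid (−0.38 to 0.29). XLOC_135569 (60193607 to 60258053), an unannotated locus that the edgeR filter on low counts left out, had 7 and 5 counts in stearic acid replicates 2 and 3 and 0 in the other libraries. These few counts allow no statement on a difference. Annotation places 210 small nucleolar RNA genes in this window, of which 0 lie inside the span of a locus described here.

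Meg3, a maternally expressed lncRNA known as a growth suppressor, was seen through 1 transcript, TCONS_00055152 (XLOC_029954, chromosome 12, 109542268 to 109544307, plus strand, 3 exons), which covers 2.04 kb of the gene's 30.7 kb span and begins 1272 bases downstream of the RefSeq start. It had 19.02, 22.8 and 22.2 CPM with stearic acid, 25.7, 14.5 and 20.0 CPM with palmitic acid, and 15.0, 21.9 and 11.9 CPM in control. The highest library was palmitic acid replicate 1 and the lowest control replicate 3, and each group overlapped the others. The log2 change against control was 0.40 ± 0.30 with stearic acid (−0.22 to 1.02, edgeR adjusted p = 0.449) and 0.31 ± 0.30 with palmitic acid (−0.30 to 0.93, edgeR adjusted p = 0.614). Leaving out 1 library at a time gave 0.20 (without control replicate 3) to 0.66 (without control replicate 2) with stearic acid, and 0.09 (without palmitic acid replicate 1) to 0.59 (without control replicate 2) with palmitic acid, where it was 0.12 without control replicate 3 and 0.50 without palmitic acid replicate 2. At 31 to 70 counts a library, the intervals for Meg3 reached levels up to 2.03-fold with stearic acid and 1.90-fold with palmitic acid of those in control. On the opposite strand at the end of Meg3, Gm26906 (XLOC_030798, 109568628 to 109571723), a lncRNA with no described function, had 8.71 to 18.5 CPM with stearic acid, 9.16 to 16.1 CPM with palmitic acid and 9.29 to 26.1 CPM in control. Its interval was the widest of the 10 loci in each comparison, from −1.17 to 0.40 with stearic and −1.24 to 0.30 with palmitic acid against control.

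**Figure D2:**
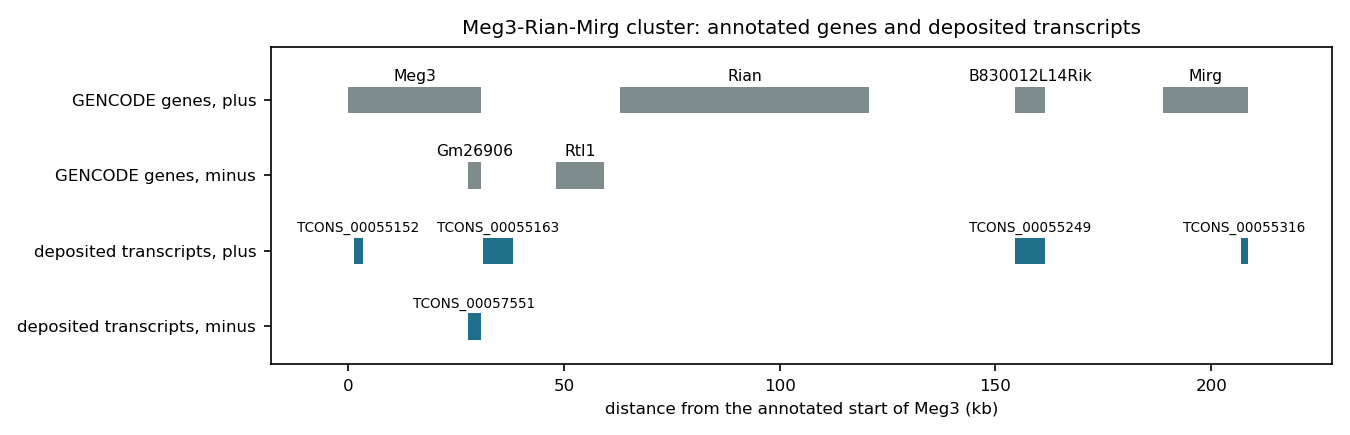
Map of the Meg3-Rian-Mirg region, with distance from the annotated start of Meg3 in kb on the x axis, annotated genes on each strand in grey and deposited transcripts on each strand in blue. The 5 transcripts cover Gm26906 and B830012L14Rik whole, short pieces of Meg3 and Mirg and an unannotated stretch after Meg3, and none lies over Rian or Rtl1.

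Downstream of Meg3 the region makes a long run of small nucleolar RNAs and microRNAs, thought to be cut from a common maternal transcript. Rian, the host of the small nucleolar RNAs (109603940 to 109661716), had no transcript in the table, and neither did Rtl1, an imprinted coding gene on the minus strand between Meg3 and Rian. The table lists only spliced models, with at least 2 exons in each of its 15589 transcripts. Unspliced RNA of any member, Airn and Kcnq1ot1 included, therefore has no model of its own in the values given here. Of 57 microRNA hairpins that RefSeq places in the window, 0 lay inside the span of a transcript, and 37 lay in the 45.4 kb between the 2 transcripts of the Mirg locus. Some transcripts begin or end near a hairpin. TCONS_00055163 (XLOC_029957) begins 180 bases after the Mir673 hairpin and ends 1115 bases before Mir493, and the Mirg transcript TCONS_00055316 begins 3 bases after Mir3072. The mature microRNAs of these flanking hairpins are shown to place the transcripts, from RefSeq's GRCm38.p6, with the seed, bases 2 to 8, in capitals.
mmu-miR-673-5p: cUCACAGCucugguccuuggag
mmu-miR-673-3p: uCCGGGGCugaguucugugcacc
mmu-miR-493-5p: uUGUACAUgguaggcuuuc
mmu-miR-493-3p: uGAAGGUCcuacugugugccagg
mmu-miR-3072-5p: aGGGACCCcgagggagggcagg
mmu-miR-3072-3p: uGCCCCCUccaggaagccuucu
No seed is shared among these 6 microRNAs, and microRNAs themselves were not measured.

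The unannotated locus XLOC_029957 (109572261 to 109579117, plus strand, 2 exons) had the most counts of the Meg3 region. It had 78.5, 101 and 72.4 CPM with stearic acid, 89.4, 60.7 and 67.2 CPM with palmitic acid, and 89.0, 85.8 and 79.1 CPM in control. The groups overlapped, with palmitic acid replicate 2 lowest and stearic acid replicate 2 highest. Its log2 change was −0.02 with stearic acid (−0.39 to 0.35) and −0.22 with palmitic acid (−0.59 to 0.14) against control. With the 3 plus-strand loci of the region summed before the fit, as if they came from 1 primary transcript, the mean was 153 ± 12.8 CPM with stearic acid, 143 ± 15.7 CPM with palmitic acid and 148 ± 14.7 CPM in control (SD, n = 3 each). The log2 changes of that sum against control were 0.05 (−0.26 to 0.35) and −0.05 (−0.35 to 0.26) for stearic and palmitic acid, narrower than for any of its members.

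Mirg, the host of the last microRNAs of the region, shares the locus XLOC_029980 (109695586 to 109749458) with B830012L14Rik, a lncRNA with no described function that lies between Rian and Mirg. The locus as a whole had 43.6 to 52.3 CPM with stearic acid, 45.4 to 55.3 CPM with palmitic acid and 40.1 to 54.6 CPM in control, with log2 changes of 0.03 (−0.35 to 0.41) and 0.10 (−0.28 to 0.48) for stearic and palmitic acid against control. The B830012L14Rik transcript, TCONS_00055249, had 14.2, 5.40 and 14.1 CPM with stearic acid, 14.1, 14.8 and 15.4 CPM with palmitic acid, and 16.8, 16.6 and 18.04 CPM in control. Every control library lay above every library of either acid, and stearic acid replicate 2 was far below the rest, on 8 counts. Its log2 change was −0.60 with stearic acid (−1.44 to 0.25, edgeR adjusted p = 0.519) and −0.22 with palmitic acid (−1.05 to 0.62, edgeR adjusted p = 0.924). The Mirg transcript had 32.7, 38.5 and 38.5 CPM with stearic acid, 31.9, 41.6 and 34.6 CPM with palmitic acid, and 37.4, 29.8 and 21.7 CPM in control, with control replicate 1 among the treated libraries.

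As a share of the locus, B830012L14Rik took 23.1% ± 9.54 of counts with stearic acid, 29.2% ± 2.60 with palmitic acid and 37.4% ± 7.33 in control (SD, n = 3 each), the rest going to Mirg. The share was lower than control by 14.3 percentage points with stearic acid and by 8.17 with palmitic acid. Each had an exact permutation p of 0.1, two-sided, the smallest that 3 against 3 libraries allow, and the control libraries are the same in both. The groups nearly touched, with 30.97% in control replicate 1, 30.77% in palmitic acid replicate 3 and 30.30% in stearic acid replicate 1. The lowest share was 12.3% in stearic acid replicate 2, on 8 counts, and the highest 45.4% in control replicate 3. Such shares were compared in each comparison for the 13 transcripts of the 4 loci with more than 1, and none could pass 0.05 in this design. The minor Nespas transcript TCONS_00150362 also had an exact permutation p of 0.1, at 0.0661% of its locus with palmitic acid and 0.632% in control. Among transcripts, edgeR called 0 of 15 members in each comparison, as did DESeq2, and the unadjusted p was under 0.05 for 1 with stearic acid and 0 with palmitic acid against control and for 1 between the acids. Of all 4426 tested transcripts 1.42% passed with stearic acid against control, 0.407% with palmitic acid against control and 0.0% between the acids. The authors' deposited tables of changed transcripts list 189, 81 and 17 for those comparisons, and 0 of the 21 transcripts are among them. The smallest absolute log2 changes listed there are 1.004, 1.005 and 1.015, while the edgeR test had no fold cutoff. In edgeR's fit, all tested member transcripts but TCONS_00150357 (log2 −1.06 with stearic acid against control, −1.61 between the acids) changed by less. Absence from those lists therefore says little on smaller changes.

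H19, a maternal lncRNA abundant in fetal tissues and host of a growth-limiting microRNA, was all but missing. XLOC_136490 (chromosome 7, 142575634 to 142576538) had 1 count in stearic acid replicate 2 and 0 counts in the other 8 libraries. No fold is given, since a count of 0 allows up to 1.10 to 2.01 CPM. Peg13, a paternal lncRNA within Trappc9, had no transcript in the table, which lists only spliced models. Igf2os, on the same chromosome as H19, is the contrast among imprinted lncRNAs. It had 1214 ± 184 CPM with stearic acid, 1727 ± 120 CPM with palmitic acid and 4101 ± 393 CPM in control (SD, n = 3 each), and fell with both acids (log2 −1.76 and −1.25, edgeR adjusted p of 1.1e-09 and 9.2e-07).

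**Figure D3:**
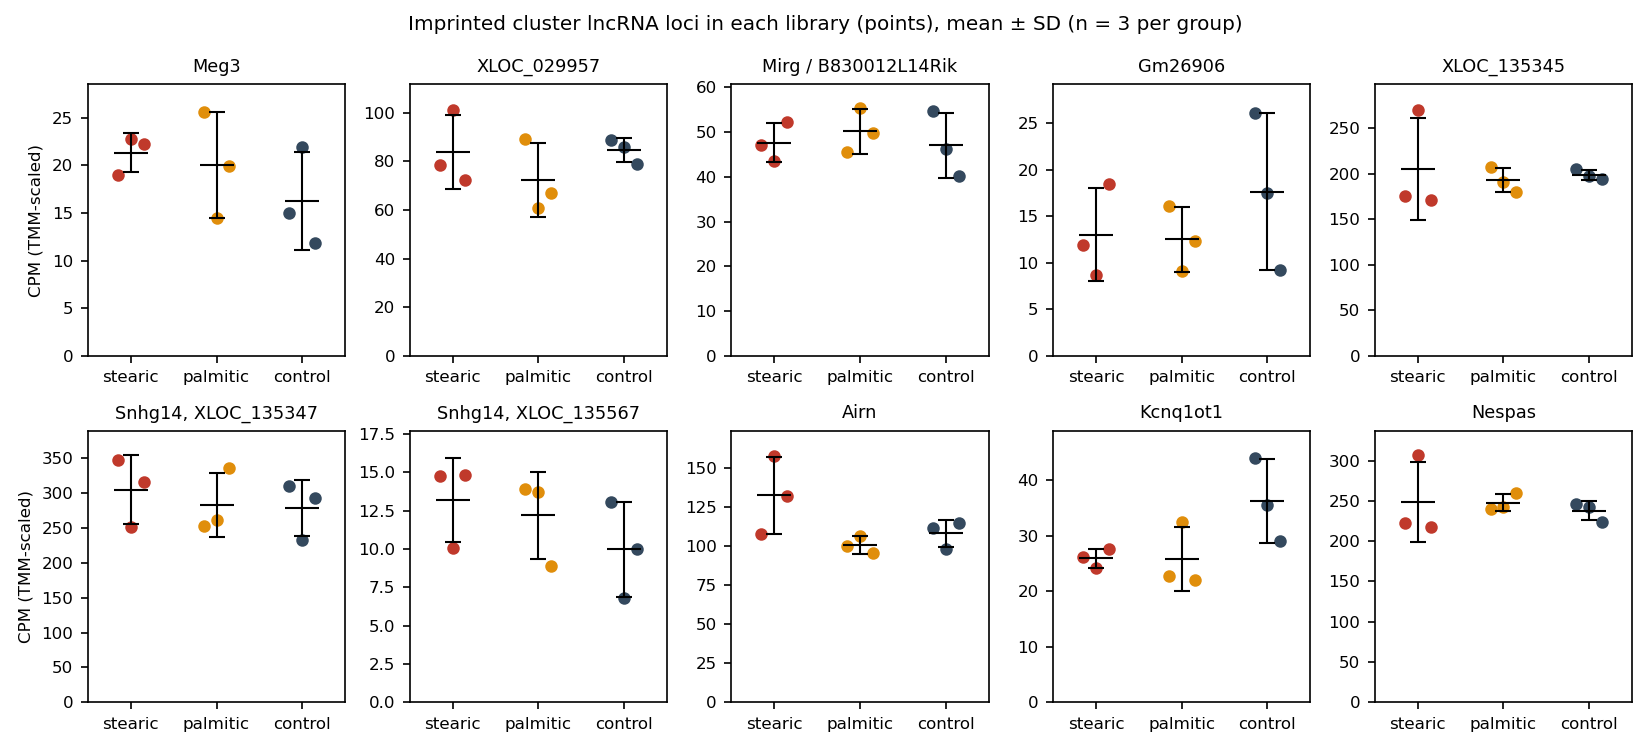
TMM-scaled CPM (y axis, from 0) of the 10 tested loci in each of the 9 libraries (points), with the mean and SD of each group of 3 as bars, in the order stearic acid, palmitic acid, control. In CPM, stearic and palmitic acid libraries are fully apart for Airn, and stearic acid and control libraries for Kcnq1ot1, while the groups overlap elsewhere. How many of all tested loci are apart in this way was not counted.

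Several members lie opposite another gene: Airn and Igf2r, Kcnq1ot1 and Kcnq1, Nespas and Gnas, XLOC_135347 and Ube3a, and Gm26906 and the lncRNA gene Meg3. The libraries were made with a strand-marking kit, but the sources used here do not give the strand setting of the counting. Without strand, reads of such a pair cannot be told apart, and counts from introns of the opposite gene could be included. In bulk RNA, fewer cells making a transcript and less of it per cell cannot be told apart either.

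**Figure D4:**
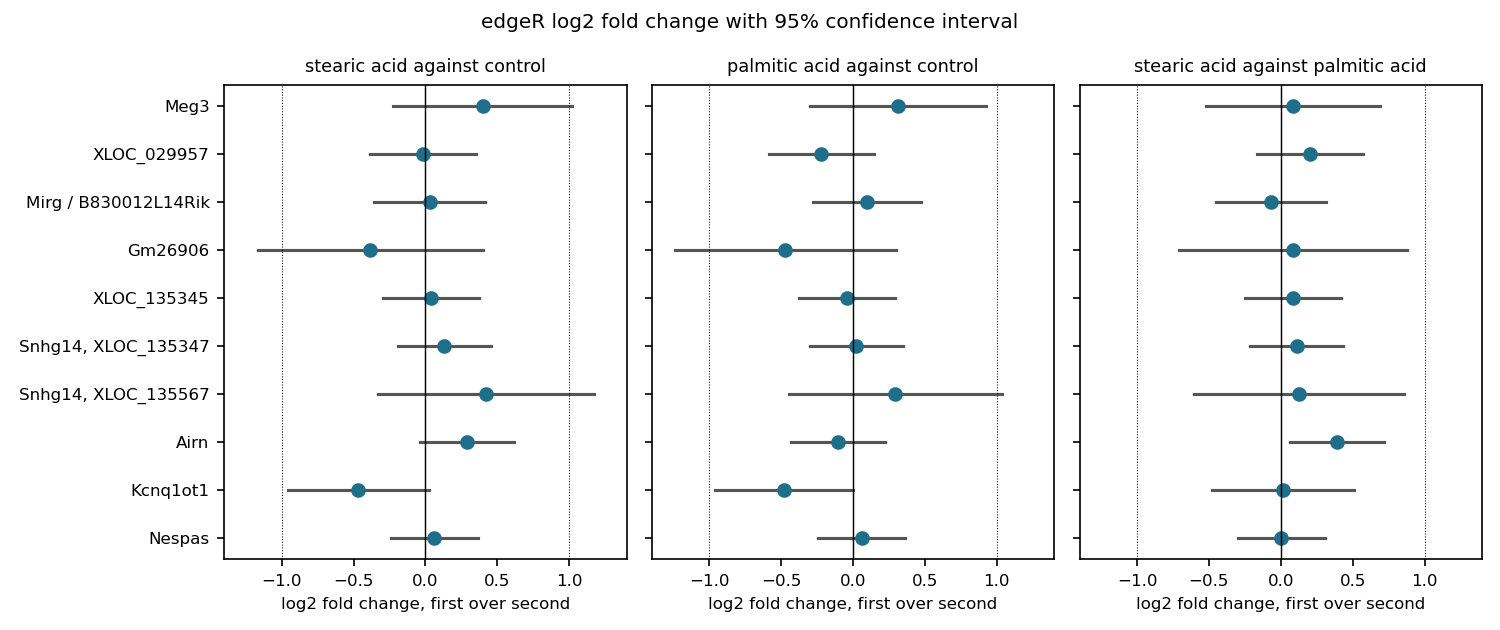
The edgeR log2 fold change (points, x axis) of the 10 tested loci with its 95% confidence interval (lines) in each comparison, with dotted lines at −1 and 1. Of the 30 intervals, those of Airn between the acids (0.06 to 0.72) and of Kcnq1ot1 with palmitic acid against control (−0.96 to −0.0014) do not cross 0, and none passed the adjusted threshold.

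Between the acids, whose chains differ in length, 0 of the 10 differences passed the edgeR test adjusted over all 3039 loci. The adjusted p ran from 0.591 for Airn to 0.995 for Nespas. The interval of the log2 difference lay within −0.31 and 0.31 for Nespas, the narrowest. For XLOC_135347 it ran from −0.22 to 0.43, for XLOC_135345 from −0.25 to 0.42, for XLOC_029957 from −0.16 to 0.57 and for the Mirg locus from −0.45 to 0.31. The low-count loci were less precise, with −0.52 to 0.69 for Meg3, −0.60 to 0.86 for XLOC_135567 and −0.71 to 0.88 for Gm26906.

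Levels of different loci were compared per length, with the deposited FPKM summed over the transcripts of a locus. Over all 9 libraries XLOC_135345 was highest at 187 ± 28.5 FPKM (SD, n = 9), which ranked 296 of the 7408 loci with a count. Airn followed with 125 ± 22.5 FPKM, Nespas with 112 ± 13.5, XLOC_135347 with 83.0 ± 15.0, Meg3 with 82.2 ± 20.0 and the Mirg locus with 75.7 ± 14.3. Neighbours in that order overlapped in their ranges over libraries, from XLOC_135345 with Airn down to Meg3 with the Mirg locus. A gap followed, since the Mirg locus was at 46.6 FPKM or more in every library and XLOC_135567 at 30.3 FPKM or less. XLOC_135567 (22.3 ± 6.41), Kcnq1ot1 (18.9 ± 5.59), Gm26906 (14.6 ± 6.76) and XLOC_029957 (13.6 ± 2.45 FPKM) overlapped one another. The order in FPKM differs from that in counts: XLOC_135347 had the most counts and XLOC_029957 more than Meg3, and within the Mirg locus Mirg had 42.6 to 91.7 FPKM in a library where B830012L14Rik had 1.21 to 4.45 FPKM.

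**Figure D5:**
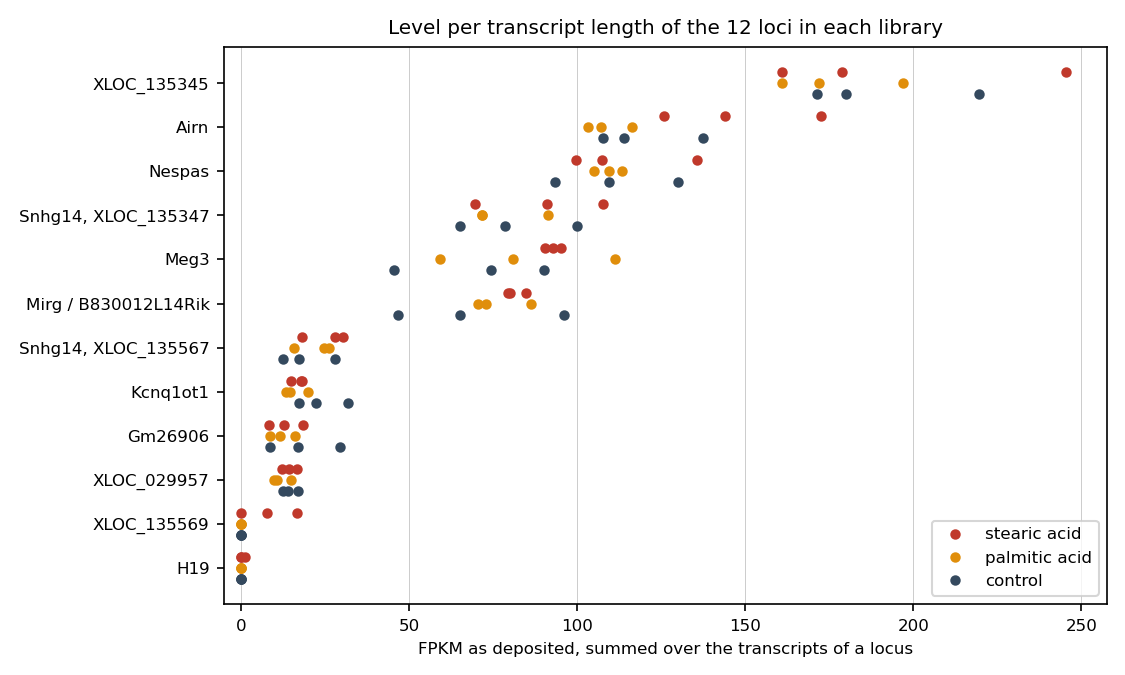
Deposited FPKM summed over the transcripts of each of the 12 loci (x axis) in each library (points, coloured by group, stearic acid above palmitic acid above control). XLOC_135345 leads with a mean of 187 FPKM, the next 5 loci average between 75.7 and 125 FPKM, and H19 has a value above 0 in 1 library.

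The FPKM of the groups stood as follows. Airn had 147 ± 23.5 FPKM with stearic acid, 109 ± 6.82 with palmitic acid and 120 ± 15.7 in control, and Kcnq1ot1 16.96 ± 1.74, 15.9 ± 3.47 and 23.8 ± 7.42 FPKM in the same order (SD, n = 3 each). Meg3 had 92.8 ± 2.33 FPKM with stearic acid, 83.8 ± 26.2 with palmitic acid and 70.0 ± 22.7 in control. Per library the overlaps differed from those in CPM. For Kcnq1ot1, stearic acid replicates 1 and 3 (18.17 and 17.75 FPKM) lay above control replicate 3 (17.29 FPKM), and for Meg3 all 3 stearic acid libraries (90.4 to 95.1 FPKM) lay above all 3 control libraries (45.4 to 90.2 FPKM). The loci whose log2 CPM most resembled that of XLOC_135345 over the 9 libraries were 1500012K07Rik (Pearson r = 0.930), Gm20402 (r = 0.929) and 1500004A13Rik (r = 0.896). They are given as a description of libraries that share depth and scaling. XLOC_135345 had 270 CPM in stearic acid replicate 2 and 171 to 207 CPM in the other libraries, so that library can weigh heavily. The correlations were not computed without it.

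Other imprinted genes were counted in the same way. The list held 51 further genes, chosen as imprinted or, for Jpx, Tsix and Xist, as X-linked regulatory lncRNAs. With the loci of the windows left out, 17 of these 51 genes had a lncRNA locus at or within 10 kb of them. These were 16 loci in all, of which 11 were tested. The locus at Tsix and Xist (XLOC_161512) is among those tested. With stearic acid against control 2 of 11 fell and 0 rose, where 11.8% of all tested loci were called in either direction. With palmitic acid against control 1 of 11 fell and 0 rose, where 5.56% were called, and between the acids 0 passed edgeR's test. At an unadjusted p under 0.05 edgeR gave 5, 4 and 1 of the 11, beside 25.1%, 19.7% and 7.37% of all tested loci. DESeq2 called 2, 1 and 1, beside 259, 144 and 4 of the 7404 loci it fitted. The median log2 change was −0.48, −0.38 and 0.01 in these comparisons, beside 0.01, −0.02 and 0.01 over all tested loci. Beside Igf2os, the locus at the signalling gene Rasgrf1 (XLOC_153027) fell with stearic acid, to 16.02 ± 2.99 CPM against 40.8 ± 9.15 CPM in control (SD, n = 3 each, log2 −1.35, edgeR adjusted p = 0.0027). With palmitic acid it had 21.8 ± 9.10 CPM (log2 −0.90, edgeR adjusted p = 0.053). Whether the windows differ from these other loci was not tested.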

How the data were processed

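Total RNA depleted of ribosomal RNA was sequenced from 9 β-TC6 libraries made with a strand-marking kit, per the labels' protocols. The submitters' processing notes name HISAT2 2.0.1, HTSeq 0.6.1 and Trimmomatic 0.30, and the genome build mm10. The sources used here give neither the assembler nor the strand setting of counting. The authors deposited an expected count (an estimated read count, whole in 77.7% of values) and, for each lncRNA transcript and library, an FPKM. The authors' comparison tables hold log2 fold changes and p-values, used only to look up members.

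Expected counts were summed per locus, rounded, filtered with filterByExpr and fitted in R 4.3.3 by edgeR 4.0.16, as a quasi-likelihood model of group over all 9 libraries with TMM scaling (3039 loci, biological coefficient of variation 0.204, 6 residual degrees of freedom). Transcripts were fitted the same way (4426, coefficient 0.564). Tests were two-sided and adjusted with the Benjamini-Hochberg method over all loci or transcripts, with a threshold of 0.05. FPKM values were not tested. Symbols and spans come from GENCODE mouse release M21, on GRCm38. DESeq2 1.42.0 was an alternative, with other scalings, filters, summing rules, a replicate block and each library left out. Replicate numbers are shared by the groups, but same-numbered libraries did not deviate together (correlations of −0.04 to 0.08 over 9 pairs), so they were not treated as pairs. Scripts were tested on simulated counts. The windows, lists and naming rules were chosen with earlier results of these data known. Named are all members that were tested, any locus bearing a name of the rule, the most counted transcripts of each, called loci of the list of other imprinted genes, and the 3 loci most alike to the member of highest FPKM.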

Additional observations from a re-analysis of the deposited data

How the results depend on the processing

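No member locus or transcript was called under any alternative run, and the lowest adjusted p of a locus was 0.151 (Airn, stearic acid against control, without stearic acid replicate 1). Of 540 alternative values of the 30 locus changes, 505 kept their direction. The other 35 belong to 16 changes whose log2 size was at most 0.39, and none involves Airn, or Kcnq1ot1 against control. Over all loci, the count of calls at an adjusted p under 0.01 was 79 with palmitic and 176 with stearic acid against control, in place of 169 and 358. Leaving out each library gave 104 to 240, 236 to 373 and, between the acids, 0 to 4 in place of 3. The lowest came without control replicate 2 for each acid against control and without palmitic acid replicate 2 between the acids. Counts of 104 to 110 with palmitic acid came without any control library or palmitic acid replicate 1 or 2, and 1 between the acids without stearic acid replicate 3. No filter gave 13 between the acids. Scaling by library size alone moved the median of all loci from −0.02 to −0.08 with palmitic acid against control and from 0.01 to 0.09 between the acids, where 2 loci were called and all 10 members were higher with stearic acid, and gave log2 changes of 0.012 for XLOC_029980 between the acids, and −0.013 for XLOC_086538 (Nespas) and −0.054 for XLOC_135347 with palmitic acid against control. For Nespas between the acids, DESeq2 gave −0.0094, no filter −0.022, the filter at 1 CPM in 3 libraries −0.026 and the replicate block −0.0082, and for Kcnq1ot1 between the acids no filter gave −0.0092 and the filter at 1 CPM −0.015.

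With the replicate number as a block, 161 and 361 loci passed against control and 3 between the acids, and 0 members. Leaving out each library gave log2 ranges that crossed 0 for 15 changes. Between the acids they were −0.10 to 0.31 for Meg3, −0.15 to 0.0074 for XLOC_029980, −0.27 to 0.31 for Gm26906, −0.19 to 0.086 for Nespas, −0.17 to 0.20 for XLOC_135345, −0.056 to 0.25 for XLOC_135567 and −0.087 to 0.21 for Kcnq1ot1. With stearic acid against control they were −0.17 to 0.075 for XLOC_029957, −0.086 to 0.14 for XLOC_029980, −0.74 to 0.0035 for Gm26906, −0.12 to 0.14 for Nespas and −0.21 to 0.15 for XLOC_135345. With palmitic acid against control they were −0.012 to 0.21 for XLOC_029980, −0.10 to 0.0044 for XLOC_135345 and −0.12 to 0.10 for XLOC_135347. The low ends for Nespas and XLOC_135345, with stearic acid against control and between the acids, came without stearic acid replicate 2. Depth limits Meg3, Gm26906 and XLOC_135567 most, at 13 to 70 counts a library.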
